A study of Mus musculus with 19 samples.

Results

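Arl4d and Rasl11a are 2 small GTPase genes that were picked out of the 16233 genes of this series because their levels differed between stimulated and naive mice. They were chosen by their UMI counts in the comparisons of seizure, immobilization and odor with naive libraries. Those levels are therefore given below as a description, with no test. Single cells were taken from the medial amygdala, a region of the mouse brain that handles social and threat-related odour signals, and were profiled by Drop-seq, a droplet method that tags each captured RNA molecule with a unique molecular identifier (UMI). All mice were C57BL/6J males aged 8 or 9 weeks, kept on a reverse light cycle. Act-Seq, a dissociation protocol designed to limit transcription during tissue handling, gave 17 libraries: 6 from naive mice, 1 from saline-treated mice, 2 from mice that had a seizure, 4 from mice stressed by immobilization and 4 from mice exposed to odor. Conventional dissociation gave 1 saline and 1 seizure library. Mice were 9 weeks old for seizure 1, immobilization 2 and 3, and odor 1 and 2, and 8 weeks old for all other libraries. The labels name no seizure agent and tie no library to an individual mouse, so the spread between libraries may be partly technical. The labels state that the study left immediate early genes out when it used the odor libraries, which served for cell typing.

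Small GTPases are molecular switches that are active when bound to GTP and inactive when bound to GDP. Arl4d belongs to the ADP-ribosylation factor-like (ARL) branch of the ARF family. With its paralogs Arl4a and Arl4c it forms a subfamily that sits at the plasma membrane and recruits cytohesins, exchange factors that load other ARF proteins with GTP. Rasl11a belongs to the RAS superfamily, lacks the lipid-anchoring tail of classical RAS proteins, and has been linked to transcription of ribosomal RNA genes by RNA polymerase I. Its paralog is Rasl11b.

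Arl4d lies on the plus strand at chr11:101665541-101667832 (mm10) and has 1 annotated transcript of 2 exons. Rasl11a lies on the plus strand at chr5:146845071-146847726 and has 2 annotated transcripts, of 2 and 4 exons. No other annotated gene overlaps either. The 250 bases before each RefSeq start (GRCm38.p6, plus strand) are printed because both genes were high in the same astrocyte libraries. They were searched on both strands for the cAMP response element TGACGTCA, the AP-1 site TGANTCA, the EGR site GCGTGGGCG, the palindromic glucocorticoid response element and the CArG box of serum response factor. Capitals mark a match.

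Arl4d, chr11:101665291-101665540: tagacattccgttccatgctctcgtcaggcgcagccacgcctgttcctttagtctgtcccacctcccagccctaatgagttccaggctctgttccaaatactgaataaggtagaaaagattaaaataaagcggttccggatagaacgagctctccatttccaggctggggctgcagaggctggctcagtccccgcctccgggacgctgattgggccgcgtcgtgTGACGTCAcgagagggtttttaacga
Rasl11a, chr5:146844821-146845070: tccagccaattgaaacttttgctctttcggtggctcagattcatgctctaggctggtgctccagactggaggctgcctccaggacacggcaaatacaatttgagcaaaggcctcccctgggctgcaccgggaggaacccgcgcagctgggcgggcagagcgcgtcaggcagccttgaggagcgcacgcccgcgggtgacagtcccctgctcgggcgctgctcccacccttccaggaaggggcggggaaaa

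The Arl4d window held 1 TGACGTCA, at -26 to -19 from the start site, and none of the other 4 motifs. The Rasl11a window held none of the 5. Among 32851 mouse windows of the same length, 508 (1.55%) held TGACGTCA, 2217 (6.75%) TGANTCA, 176 (0.536%) GCGTGGGCG, 482 (1.47%) a CArG box and 3 (0.00913%) the glucocorticoid response element. Of the paralogs' windows, 1 of the 2 of Arl4a held TGAATCA, an AP-1 match, at -248 to -242. The windows of Arl4c and Rasl11b held no match. A match is a run of letters and was not measured as a bound site.

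The main table held 20679 cells and 35709950 UMIs from 16 Act-Seq libraries of 43 to 2189 cells, with 116492 to 3723521 UMIs each and a median of 1222 UMIs per cell. Levels are given as CPM, the UMIs of the gene per 1000000 UMIs of all cells of 1 class in 1 library, using the authors' cell classes and libraries with at least 10 cells of the class. Naive 6, with 43 cells, entered no class. A separate table compared the dissociation methods in 5 libraries and 8071 cells. In that table the cell barcodes of the Act-Seq seizure libraries do not match those of the main table: all 1777 cells of seizure 1 and all 1123 of seizure 2 had counts identical to a cell of the same library there, but 0 carried the same barcode. In addition, 1115 barcodes of seizure 1 recurred in the conventional saline library, where other library pairs of that table shared 0 or 1. Cells of that table were therefore classed by clustering and markers, and results are given with and without those libraries. In the main table no library pair shared more than 2 barcodes. Fewer cells expressing a gene and less RNA per cell cannot be told apart in a CPM. Where library ranges are said to overlap or not, the share of all genes that separate likewise is not given. Such statements describe the libraries only.

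Both genes were rare transcripts, and each had its own cell types. Arl4d gave 833 UMIs in 683 cells (3.30% of all cells). Of these UMIs 369 (44.3%) came from oligodendrocytes, 253 (30.4%) from astrocytes and 108 (13%) from endothelial cells. Oligodendrocyte precursors gave 5, microglia 10 and mural cells 10. Rasl11a gave 719 UMIs in 563 cells (2.72%). Astrocytes gave 357 of these (49.7%) and oligodendrocyte precursors 146 (20.3%), whereas mature oligodendrocytes gave 7 and microglia 1. Along the oligodendrocyte lineage the 2 genes thus lay on opposite sides. A Rasl11a UMI was found in 92 of 822 precursors (11.2%) and in 6 of 2041 oligodendrocytes, and an Arl4d UMI in 4 precursors and in 281 oligodendrocytes (13.8%). Most cells with a UMI had only 1: 561 of 683 for Arl4d and 444 of 563 for Rasl11a.

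In naive mice the highest Arl4d level was in endothelial cells, at 69.1 ± 33.8 CPM (SD, n = 5 libraries), followed by oligodendrocytes at 18.4 ± 24.7 CPM, whose range overlapped that of endothelial cells. Astrocytes and oligodendrocyte precursors had no Arl4d UMI in any of the 5 naive libraries. Rasl11a was highest in naive mural cells, the contractile cells and pericytes of vessel walls, at 71.8 ± 57.9 CPM (n = 4), and in oligodendrocyte precursors, at 42.0 ± 15 CPM (n = 5). The ranges of those 2 classes overlapped. Endothelial cells (12.5 ± 8.40 CPM) and astrocytes (12.1 ± 7.37 CPM) came next and overlapped each other. Naive oligodendrocytes had no Rasl11a UMI.

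**Figure D1:**
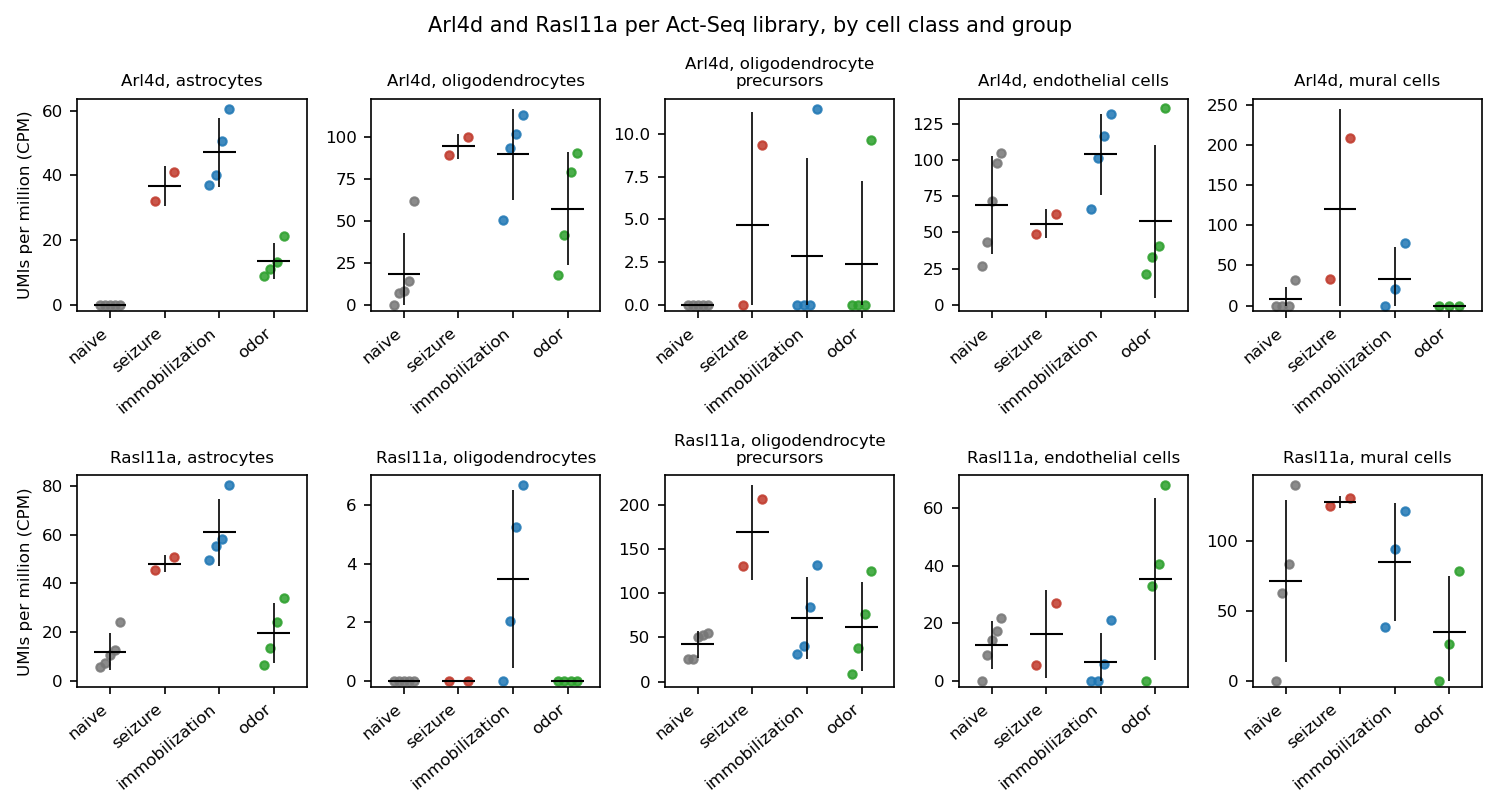
Arl4d (upper row) and Rasl11a (lower row) in 5 cell classes; the y axis is CPM on a linear scale that differs between panels, each point is 1 Act-Seq library with at least 10 cells of the class, and bars give the mean and SD. In astrocytes every seizure and immobilization library lies above every naive library for both genes, while in endothelial cells the groups overlap.

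In astrocytes Arl4d was absent from the counts of naive mice and present in every other library. The 5 naive libraries held 0 Arl4d UMIs of 3248596, which allows up to 0.923 CPM (3 counts over the group). The seizure libraries had 32.2 and 41.1 CPM (29 and 30 UMIs). The immobilization libraries had 36.9, 60.6, 50.8 and 40.2 CPM (38, 78, 41 and 3 UMIs), and the odor libraries 8.74, 21.4, 11.1 and 13.1 CPM (7, 15, 10 and 2 UMIs). The 4 odor libraries lay above naive and below every seizure and immobilization library. Over the pooled UMIs of each group this is at least 39.2-fold higher than naive after seizure, 54.2-fold after immobilization and 14.4-fold after odor. These folds are against the naive floor of 0.923 CPM. Astrocytes of the Act-Seq saline library, in the separate dissociation comparison, lay above that floor, at 2.71 CPM (3 UMIs). Naive libraries were all from 8-week mice. The 8-week libraries alone (seizure 2, immobilization 1 and 4, and odor 3 and 4) all lay above naive as well, at 41.1, 36.9, 40.2, 11.1 and 13.1 CPM.

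The share of astrocytes with an Arl4d UMI was 0% in naive libraries, 5.58 ± 1.01% in seizure (n = 2), 7.97 ± 2.75% in immobilization (n = 4) and 1.82 ± 0.97% in odor libraries (n = 4). With every cell thinned to 600 UMIs, the shares were 0%, 2.37%, 3.08% and 0.790%, in the same order. At 1000 UMIs they were 0%, 3.20%, 4.94% and 1.55%, with 426, 260, 412 and 515 shallower cells left out. Oligodendrocyte precursors, the class with the fewest Arl4d UMIs, had a UMI in 0.487% of cells, with a median of 1842 UMIs per cell against 1341 in astrocytes. Markers of the astrocyte class itself, 8 genes such as Aqp4 and Gja1, summed to 27575 to 32366 CPM over all 15 libraries. Summed oligodendrocyte markers (8 genes) in astrocytes were 367 to 844 CPM in naive, 482 to 507 in seizure, 542 to 760 in immobilization and 631 to 899 in odor libraries, so the groups overlapped. Summed endothelial markers in astrocytes ranged from 78.9 to 289 CPM.

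In oligodendrocytes, the myelin-forming cells, Arl4d was present before any stimulus. Naive libraries had 14.4, 61.6, 7.38, 8.51 and 0 CPM, and naive 2 (21 UMIs) stood apart from the other 4. Seizure libraries had 89.2 and 99.7 CPM, both above every naive library. Immobilization libraries had 102, 93.5, 113 and 50.8 CPM, of which the last overlapped naive 2. Odor libraries spread from 18.0 to 90.3 CPM. The pooled levels were 4.54-fold (seizure), 4.89-fold (immobilization) and 3.19-fold (odor) higher than naive. The fitted log2 difference was 2.18 after seizure, 2.26 after immobilization and 1.60 after odor, and without naive 2 these were 3.20, 3.27 and 2.62.

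In endothelial cells, which line the vessels, the groups did not separate. Naive libraries ranged from 27.0 to 105 CPM, seizure libraries were 49.1 and 63.0 CPM, immobilization libraries 66.3 to 132 CPM and odor libraries 21.2 to 136 CPM. Mural cells gave 10 Arl4d UMIs in all, of which seizure 2 held 5 (209 CPM). Oligodendrocyte precursors had 9.35 and 0 CPM after seizure, and at most 11.5 CPM in any library. Microglia had 0 to 11.2 CPM in all groups, and 0 in both seizure libraries.

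Rasl11a in astrocytes started from a measurable level. Naive libraries had 12.6, 24.4, 10.7, 7.40 and 5.64 CPM (12, 18, 9, 4 and 1 UMIs). Seizure libraries had 45.6 and 50.7 CPM, and immobilization libraries 58.2, 55.2, 49.5 and 80.4 CPM. All 6 lay above all 5 naive libraries. Odor libraries, at 13.7, 34.2, 24.4 and 6.57 CPM, overlapped the naive range. The pooled levels were 3.53-fold (seizure), 4.09-fold (immobilization) and 1.67-fold (odor) higher than naive. The share of astrocytes with a Rasl11a UMI was 1.80 ± 0.78% in naive mice, 6.81 ± 0.01% after seizure, 9.32 ± 1.55% after immobilization and 2.92 ± 1.91% after odor. Thinned to 600 UMIs per cell, these shares were 0.647%, 2.78%, 3.65% and 1.29%. Microglia, in comparison, had a Rasl11a UMI in 0.0472% of cells, with a median of 1130 UMIs per cell.

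Oligodendrocyte precursors, the dividing cells that give rise to oligodendrocytes, had their highest Rasl11a levels after seizure. Naive libraries had 25.8, 25.5, 55.2, 50.4 and 53.1 CPM. Seizure libraries had 131 and 207 CPM (28 and 32 UMIs), which is 4.22-fold higher than naive in the pooled counts and above every naive library. Immobilization libraries had 40.01, 84.2, 132 and 31.4 CPM, and odor libraries 75.9, 38.5, 8.26 and 125 CPM. Both of these groups overlapped the naive range. The seizure libraries were also the group with the smallest n, at 2 against 4 or 5. Whether the precursor pattern differed from that of astrocytes was not tested.

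Rasl11a in the other classes was sparse. Mural cells had 84.2, 140, 0 and 62.8 CPM in naive, 131 and 125 in seizure, 122, 94.4 and 38.8 in immobilization and 0, 26.4 and 78.5 in odor libraries, so all groups overlapped. Oligodendrocytes had a UMI only in immobilization libraries, 7 UMIs in all and at most 6.68 CPM. Endothelial libraries ranged from 0 to 67.9 CPM with overlap between all groups. Microglia had 1 UMI, in naive 3.

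Both transcripts were low in neurons, and the library ranges overlapped for some groups and not for others. In the 2444 cells of the authors' neuron table, naive libraries had 0 to 1.27 CPM of Arl4d, seizure libraries 6.76 and 18.1, immobilization libraries 0 to 15.4 and odor libraries 3.49 to 8.40 CPM. Rasl11a in the same cells was 0 to 11.4 CPM in the 5 naive libraries and 17.4 and 15.5 CPM in the 2 seizure libraries. These did not overlap, but how often other genes separate likewise is not given. Immobilization libraries had 5.15, 29.9, 7.70 and 0 CPM and odor libraries 1.68, 13.1 and 1.74 CPM, and both groups overlapped naive. The other 6206 cells that the authors class as neurons, with a median of 864 UMIs, gave 78 Rasl11a UMIs (10.8% of all) and 32 of Arl4d. Rasl11a there was 4.40, 2.52, 0, 0 and 37.3 CPM in naive libraries, the last from 1 UMI in 28 cells. It was 13.4 and 29.5 CPM after seizure, 32.1, 8.15, 21.9 and 0 CPM after immobilization and 5.53, 25.5, 6.45 and 12.8 CPM after odor. Seizure and odor libraries thus overlapped naive only through naive 5, immobilization libraries also through immobilization 4. The fitted log2 differences were 2.66, 2.70 and 1.94 for seizure, immobilization and odor. Arl4d in these cells was 0 to 4.40 CPM in naive, 10.4 and 4.92 in seizure, 0 to 54.3 in immobilization (the highest from 2 UMIs) and 0 to 8.60 CPM in odor libraries.

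Astrocyte transcripts were plentiful in the neuron classes. The 8 summed astrocyte markers were 9839 to 15181 CPM in naive, 14195 to 15364 in seizure, 14317 to 16256 in immobilization and 13749 to 16133 CPM in odor libraries of the neuron table, and 14735 to 18119 CPM in the other neuron-class cells. The 12 summed neuron markers were 2459 to 17974 CPM in the neuron table and 1983 to 11626 CPM in the other cells, against 248 to 590 CPM in astrocytes. Of the naive libraries in the neuron table, 4 of 5 had a lower astrocyte sum than any stimulated library. The part of astrocyte RNA in the neuron values of Arl4d and Rasl11a was not tested. Across the authors' 16 neuron clusters, the pooled level over N1 to N12 was 6.26 CPM for Arl4d and 7.22 CPM for Rasl11a. Over N13 to N16 it was 7.05 and 13.7 CPM. Cluster N13 held 23 Rasl11a UMIs (22.6 CPM), and 47 of its 244 cells carry the authors' astrocyte class. The part that such cells play in its level was not tested.

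The 2 genes were high in the same astrocyte libraries, with a Pearson r of 0.861 between their log2(CPM + 10) values over 15 libraries that share the group differences described above. Each ranked 8 among the 10519 other genes in likeness to its partner. After immobilization 140 of 1619 astrocytes had an Arl4d UMI, 149 had a Rasl11a UMI and 9 had both, where the product of the 2 shares gives 12.9 cells. After seizure the numbers were 50, 62 and 4 of 911 cells, where the product gives 3.403. Immobilization astrocytes with a Rasl11a UMI had 26.4 CPM of Arl4d (11 UMIs in 149 cells), against 53.6 CPM in the other astrocytes. By library these were 7.04 against 41.7 CPM (1 UMI in 46 cells with Rasl11a), 47.9 against 62.8 CPM (9 in 62 cells) and 12.9 against 54.8 CPM (1 in 36 cells). Immobilization 4 had 0 in 5 cells, which says nothing about its order, since the 95% Poisson interval reaches 404 CPM. Cells with a Rasl11a UMI were deeper, with medians of 1961.5 against 1287 UMIs in immobilization 1. The medians were 2350 against 1640 in immobilization 2 and 1728.5 against 1269 in immobilization 3. The product of the shares takes no account of depth or library, and the part of depth was not tested. In seizure astrocytes with and without a Rasl11a UMI, Arl4d was 31.8 and 36.7 CPM, with opposite order in the 2 libraries.

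In precursors of seizure mice Rasl11a was higher in cells with an Egr1 or Nr4a1 UMI, and had no common order by Fos or Junb. All 4 are immediate early transcription factor genes. Rasl11a was 236 CPM in the 104 precursors with an Egr1 UMI (49 UMIs) and 68.2 CPM in the 95 cells without (11 UMIs). In seizure 1 the levels were 203 CPM (95% Poisson interval 125 to 310, counting error only) and 63.4 CPM (25.5 to 131). In seizure 2 they were 270 CPM (179 to 390) and 78.5 CPM (21.4 to 201). Cells with Egr1 were deeper, with medians of 1827 and 2072 UMIs against 1298 and 1117. By Nr4a1 the Rasl11a levels were 223 CPM with and 103 CPM without, higher with Nr4a1 in both libraries. By Fos they were 230 CPM with and 117 CPM without in seizure 1, and 183 and 212 CPM in seizure 2 (26 cells with Fos in all). By Junb they were 0 CPM with, in 2 cells, and 134 CPM without in seizure 1, and 630 (12 UMIs in 9 cells) and 147 CPM in seizure 2. The 2 libraries thus lay in opposite order for Fos and for Junb.

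In seizure astrocytes Rasl11a was 59.3 CPM in cells with a Fos UMI and 40.8 CPM in cells without, with the libraries at 46.8 and 44.8 CPM (seizure 1) and 74.4 and 35.8 CPM (seizure 2). For Rasl11a by Fos in seizure 1 the 95% Poisson intervals were 26.7 to 76.0 and 29.0 to 66.1 CPM. By Egr1, Rasl11a was 44.5 against 45.8 CPM in seizure 1 and 54.5 against 49.8 CPM in seizure 2. By Nr4a1 it was 59.8 against 43.1 and 83.0 against 47.2 CPM. By Junb it was 18.7 against 49.2 and 85.9 against 44.8 CPM, so the libraries lay in opposite order. Arl4d was not higher with Fos: it was 27.2 CPM in seizure astrocytes with Fos and 41.8 CPM in those without. Tsc22d3 is a glucocorticoid-induced gene. Immobilization astrocytes with its UMI had 51.6 CPM of Arl4d against 38.7 CPM without (higher in 3 of 4 libraries) and 56.6 CPM of Rasl11a against 46.5 CPM (4 of 4). The Rasl11a levels were 55.2 and 54.9 CPM in immobilization 2, and cells without Tsc22d3 held 1 Rasl11a UMI in immobilization 4. The 95% Poisson intervals for Rasl11a overlapped in every library. After seizure the same comparison gave 37.4 against 33.2 CPM of Arl4d and 49.2 against 44.3 CPM of Rasl11a, each higher in 1 of 2 libraries. By Fkbp5 and Cdkn1a, also reference genes, Arl4d was mostly lower in immobilization astrocytes with the UMI. With Fkbp5, libraries 1 to 4 had 9.73 against 39.9, 45.0 against 64.7, 81.3 against 46.5 and 0 (3 cells) against 44.8 CPM. With Cdkn1a they had 31.9 against 37.8, 53.1 against 64.2, 50.2 against 50.9 and 0 (3 cells) against 42.3 CPM. Rasl11a by Fkbp5 had no common order, at 68.1 against 57.2, 41.3 against 58.8, 61.0 against 47.9 and 131 (1 UMI) against 74.6 CPM. With a UMI of Dio2, whose product activates thyroid hormone, Rasl11a was 64.3 against 48.4 CPM after immobilization (4 of 4). After seizure the order was the opposite, at 40.3 against 53.2 CPM, lower with Dio2 in both libraries (35.2 against 51.9 and 45.5 against 55.0 CPM). Cells with Dio2 were deeper, with medians of 1632 against 1214 UMIs in immobilization 1.

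**Figure D2:**
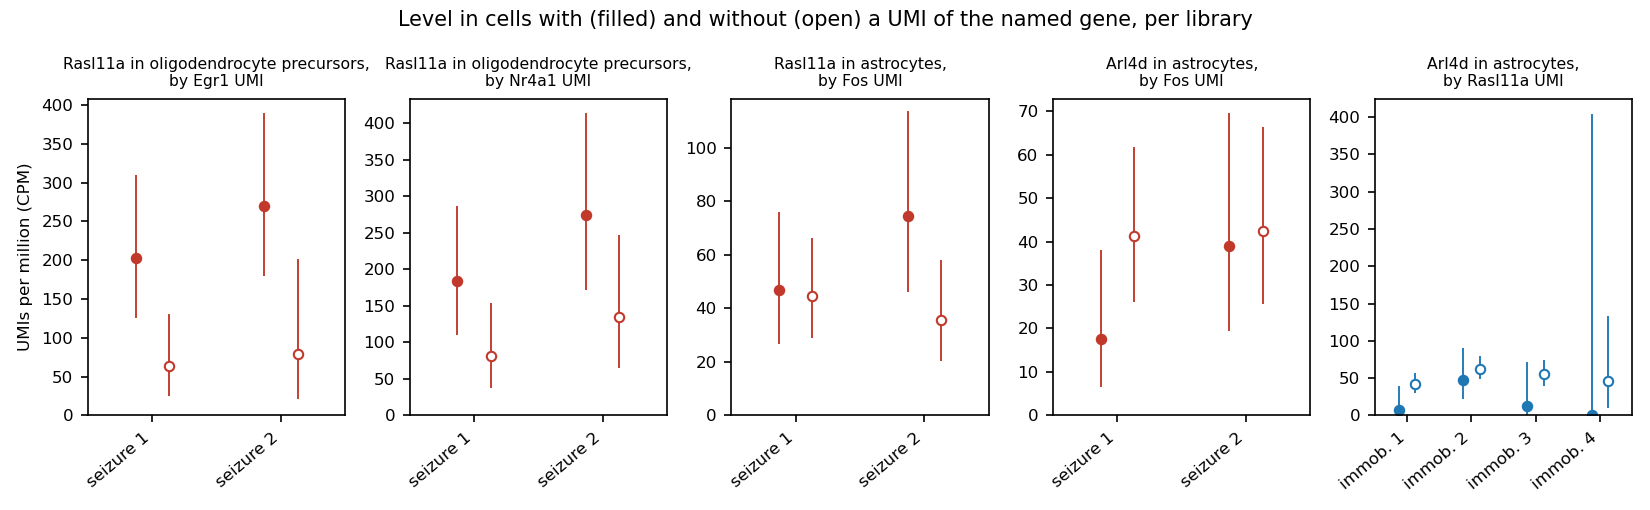
Level of 1 gene (y axis, CPM, linear scale) in cells with (filled) and without (open) a UMI of the gene named in each panel, per library, with 95% Poisson intervals for counting error. Rasl11a in seizure precursors is higher with Egr1 in both libraries (203 against 63.4 and 270 against 78.5 CPM), while Arl4d in immobilization astrocytes with Rasl11a rests on 1, 9, 1 and 0 UMIs.

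Genes with the most similar pattern over the 15 astrocyte libraries, by Pearson r of log2(CPM + 10), were Nfkbia (r = 0.933), Ddit4 (0.925), Dio2 (0.906), Rhob (0.894) and Ppp1r3g (0.888) for Arl4d. For Rasl11a they were Nfkbia (0.936), Errfi1 (0.929), Slc35e4 (0.924), Tob2 (0.882) and Emc8 (0.877). Nfkbia, the inhibitor of NF-kappa B, led both lists. Its level was 131 ± 50.7 CPM in naive, 399 ± 7.87 in seizure, 504 ± 24.9 in immobilization and 261 ± 74.4 CPM in odor libraries. Ddit4, an inhibitor of mTORC1, was 146 ± 10.3, 260 ± 24.5, 259 ± 34.0 and 199 ± 26.7 CPM. Errfi1, an inhibitor of the EGF receptor, was 11.6 ± 4.40, 27.2 ± 2.28, 30.2 ± 8.21 and 12.3 ± 6.37 CPM. Likeness over libraries that differ by treatment reflects those groups and gives no evidence of shared control.

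None of the 3 paralogs was called in astrocytes. Arl4a was 40.6 ± 12.6 CPM in naive, 38.7 ± 8.17 in seizure, 29.8 ± 6.16 in immobilization and 25.8 ± 9.96 CPM in odor libraries. Arl4c was 12.9 ± 4.70, 5.39 ± 1.81, 23.7 ± 20.0 and 5.47 ± 4.22 CPM. Rasl11b was 11.3 ± 4.73, 8.39 ± 5.58, 17.4 ± 7.55 and 9.72 ± 2.56 CPM. They did not pass an edgeR quasi-likelihood test on summed counts, with adjusted p between 0.464 and 0.979 over the 3 comparisons. Arl4a was instead an endothelial and precursor transcript, with 776 ± 167 CPM in naive endothelial cells and 244 ± 57.8 CPM in naive precursors. In oligodendrocytes Rasl11b rose after immobilization, from 23.1 ± 14.2 CPM to 72.4 ± 3.42 CPM (log2 difference 1.35 ± 0.30 SE, edgeR adjusted p = 0.00947). There 0.9% of 7447 genes were called, and Rasl11a itself had 7 UMIs in all. The call for Rasl11b was lost with DESeq2 (adjusted p = 0.128), with age as a covariate (0.141) and without immobilization 3 (0.0630).

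**Figure D3:**
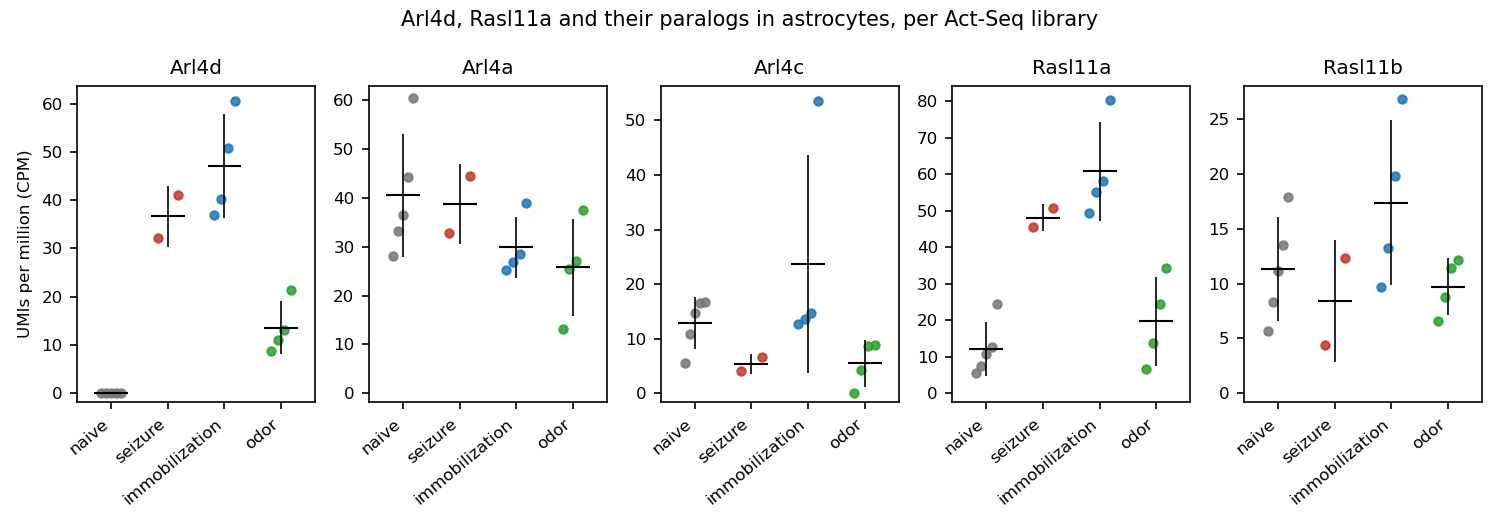
Arl4d, its paralogs Arl4a and Arl4c, and Rasl11a with its paralog Rasl11b in astrocytes; the y axis is CPM on a linear scale that differs between panels, points are Act-Seq libraries, and bars give the mean and SD. Naive and stimulated libraries overlap for the 3 paralogs, whose adjusted p lay between 0.464 and 0.979.

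The other tested genes of the ARF and RAS lists and of the processes around them were not called in astrocytes in any of the 3 comparisons with naive libraries. In all 10520 genes tested, 0.466% were called after seizure, 1.51% after immobilization and 0.656% after odor (edgeR, adjusted p under 0.05). At those shares any list of 13 to 30 genes would most often have 0 called. The counts below therefore do not set these lists apart from all genes. Of the 23 ARF and ARL genes tested besides Arl4d, 0 were called in each comparison; 2, 0 and 3 had an unadjusted p under 0.05, and DESeq2 called 0 in each. Their median log2 differences were 0.03, 0.01 and -0.05, against -0.01, -0.02 and -0.01 over all genes. Of 30 ARF exchange factors and GTPase-activating proteins 0 were called, with 0, 4 and 1 at an unadjusted p under 0.05 and 0 called by DESeq2. Of 22 RAS family genes besides Rasl11a 0 were called (1, 1 and 2 at an unadjusted p under 0.05, 0 by DESeq2). Of 13 genes of RNA polymerase I transcription, the process Rasl11a has been linked to, 0 were called (0, 1 and 1 at an unadjusted p under 0.05, 0 by DESeq2).

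The dissociation comparison asks how far the method of tissue handling moved the 2 genes, with seizure as a second factor. It holds 5 libraries, so the fit had 2 residual degrees of freedom, and 1 saline and 1 seizure library carry all of the conventional values. Whether the method entered the choice of the genes is not recorded, so these tests are not independent evidence. Classes were matched by markers: of the Act-Seq seizure cells that carry an authors' class, 95% of those classed here as astrocytes (690 of 726) and all of the endothelial, microglial, mural and oligodendrocyte cells had the same class in the main table. These shares do not count cells that the classing missed. An unnamed cluster of 191 cells was left out, although 87 of its 89 cells with an authors' class are astrocytes there. Seizure 1 and 2 had 15 and 13 mural cells here, against 24 and 21 in the main table. Neurons fell into clusters that differed almost wholly between methods and were not compared.

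In astrocytes Arl4d was low in both saline libraries and high in all seizure libraries, whichever method was used. Saline cells had 2.71 CPM with Act-Seq and 5.06 CPM with conventional dissociation (3 UMIs each). Seizure cells had 37.7 and 36.0 CPM with Act-Seq and 23.4 CPM with the conventional method (30, 24 and 10 UMIs). The fitted method difference, conventional minus Act-Seq, was -0.34 ± 0.51 (log2, SE; edgeR adjusted p = 0.850), and the direction turned to 0.96 without the conventional seizure library. In oligodendrocytes Arl4d was 29.3 and 39.6 CPM in saline and 98.5, 99.2 and 88.9 CPM in seizure libraries, with a method difference of 0.12 ± 0.28 (adjusted p = 0.956, edgeR). The 2 seizure libraries made with Act-Seq are the same cells as in the main table, so their seizure values are no new measurement. The saline and conventional libraries are separate.

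Rasl11a in saline astrocytes was 11.7 CPM with Act-Seq (13 UMIs) and 42.2 CPM with conventional dissociation (25 UMIs). In seizure astrocytes it was 55.2 and 52.4 CPM with Act-Seq and 53.7 CPM with the conventional method. The conventional saline library was thus close to the seizure libraries, while the Act-Seq saline library matched the naive range of 5.64 to 24.4 CPM. The 2 astrocyte clusters were unevenly split between methods. The smaller one, whose cells were deeper, held 113 of 523 astrocytes of Act-Seq saline, 102 of 404 and 86 of 322 of Act-Seq seizure, and 15 of 417 and 12 of 261 of conventional saline and seizure libraries. In the larger cluster alone Rasl11a was 11.4 CPM in Act-Seq saline (7 UMIs), 42.0 in conventional saline (23 UMIs), 68.5 and 58.0 in Act-Seq seizure and 57.5 CPM in conventional seizure libraries, so the order of the saline libraries was the same. Arl4d there was 4.90 and 5.48 CPM in saline (3 UMIs each), 48.9 and 37.7 in Act-Seq seizure and 26.1 CPM in conventional seizure libraries. The fitted difference over both states was 0.71 ± 0.35 (edgeR adjusted p = 0.355). Without the conventional seizure library it was 1.93 (edgeR adjusted p = 0.0182), but that fit sets 1 saline library against 1, with a spread taken only from the 2 Act-Seq seizure libraries, so it is no replicated test of the method. In precursors Rasl11a was 76.4 CPM in Act-Seq saline, 22.2 in conventional saline, 158 and 237 in Act-Seq seizure and 131 CPM in conventional seizure libraries, with a difference of -0.83 ± 0.33 (edgeR adjusted p = 0.627).

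Of the 6 combinations of gene and class that passed the low-count filter, 1 was called. This was Rasl11a in mural cells, where 3.77% of the 478 genes tested were called, against 4.42% in astrocytes, 0.97% in oligodendrocytes, 0.284% in precursors and 0.252% in endothelial cells. Mural cells had 62.5 CPM in Act-Seq saline (4 UMIs in 3 of 43 cells), 181 and 148 CPM in Act-Seq seizure (4 and 2 UMIs) and 1365 and 1292 CPM in the conventional saline and seizure libraries (34 UMIs in 7 of 20 cells, and 39 UMIs in 8 of 19 cells). The mural cells of a library held only 13558 to 63970 UMIs in all, and the gene passed the low-count filter through the conventional libraries, where it was high. Rasl11a rose with the conventional method by 3.62 ± 0.49 on the log2 scale (edgeR adjusted p = 0.000723), and with no filter by 3.64 (adjusted p = 4.3e-06, edgeR). With each library left out in turn it was 3.02 to 4.39. That range includes the fits without seizure 1 or the conventional saline library, which share barcodes. Its upper end, 4.39, came without the conventional seizure library. That fit sets 1 saline library against 1, so it is no replicated test of the method. The highest mural level in the 12 Act-Seq libraries of the main table with at least 10 mural cells was 140 CPM. Naive 5 and immobilization 4, with 5 mural cells each, had 2 and 3 UMIs (456 and 605 CPM).

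The mural class joins contractile cells (smooth muscle, marked by Acta2, Tagln and Myl9) and pericytes (Kcnj8, Vtn, Higd1b and Rgs5), and a split by which markers gave more UMIs was made after these values were seen. Contractile-rich cells had 2007 CPM in conventional saline (33 UMIs in 6 of 11 cells) and 1734 CPM in conventional seizure libraries (29 UMIs in 7 of 10 cells). In Act-Seq libraries the contractile-rich cells had 129 CPM in saline and 147 and 435 CPM in seizure mice. The other mural cells had 118 CPM in conventional saline (1 UMI) and 742 CPM in conventional seizure libraries (10 UMIs, all in 1 of 9 cells). Contractile-rich cells were 16 of 43 mural cells in the Act-Seq saline library and 11 of 20 in the conventional one.

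In endothelial cells Arl4d was 36.3, 46.5 and 62.9 CPM with Act-Seq and 97.7 (saline) and 176 CPM (seizure) with the conventional method, so the methods did not overlap. The difference was 1.70 ± 0.37 (edgeR adjusted p = 0.132), and with no low-count filter it was 1.73 with an adjusted p of 0.0139. That unfiltered call was lost with saline, conventional saline, seizure 1 or conventional seizure left out (edgeR adjusted p = 0.236, 0.305, 0.153 and 1). In endothelial cells with no such filter, 0.531% of 13379 genes were called, in a fit added after these values were seen. Rasl11a was 0, 5.81 and 31.4 CPM with Act-Seq and 123 (saline) and 27.6 CPM (seizure) with the conventional method. Its difference in that unfiltered fit was 2.92 ± 0.71 (edgeR adjusted p = 0.0101), and 0.91 and 0.93 (adjusted p = 1 in both) without the conventional or the Act-Seq saline library. All 29 Rasl11a UMIs of that library lay in 8 of 112 endothelial cells, whose summed mural markers (8 genes) were 16403 CPM against 5729 CPM in the other 104. The part of mural RNA in this value was not tested.

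Microglia, the immune cells of the brain, had almost no Arl4d with Act-Seq, at 6.61 CPM in saline (2 UMIs) and 0 in both seizure libraries. With conventional dissociation they had 38.2 CPM in saline (10 UMIs) and 74.1 CPM in seizure mice (16 UMIs). Arl4d did not pass the low-count filter, and a fit with no filter was added only after these values were seen. Nearly all Arl4d UMIs lay in the conventional libraries, so the p-values of that fit are no independent support for the gene. With no filter, where 1.35% of 13306 genes were called, it rose by 4.04 ± 0.79 on the log2 scale (edgeR adjusted p = 5.3e-05), and without the conventional seizure library by 2.55 with an adjusted p of 0.884. Summed neuron markers in microglia were 136 CPM in Act-Seq saline and 200 and 226 CPM in Act-Seq seizure libraries. With the conventional method they were 779 CPM in the saline and 292 CPM in the seizure library. Their highest value was thus in conventional saline, and that of Arl4d in conventional seizure. Cells classed here as neurons had 3.66 CPM of Arl4d in the conventional saline and 1.35 CPM in the conventional seizure library. In the conventional saline and seizure libraries oligodendrocytes had 39.6 and 88.9 CPM of Arl4d, and endothelial cells 97.7 and 176 CPM. The part of RNA from neurons, oligodendrocytes or endothelial cells in the microglial Arl4d value was not tested. Rasl11a had 0 UMIs in microglia of all 5 libraries.

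**Figure D4:**
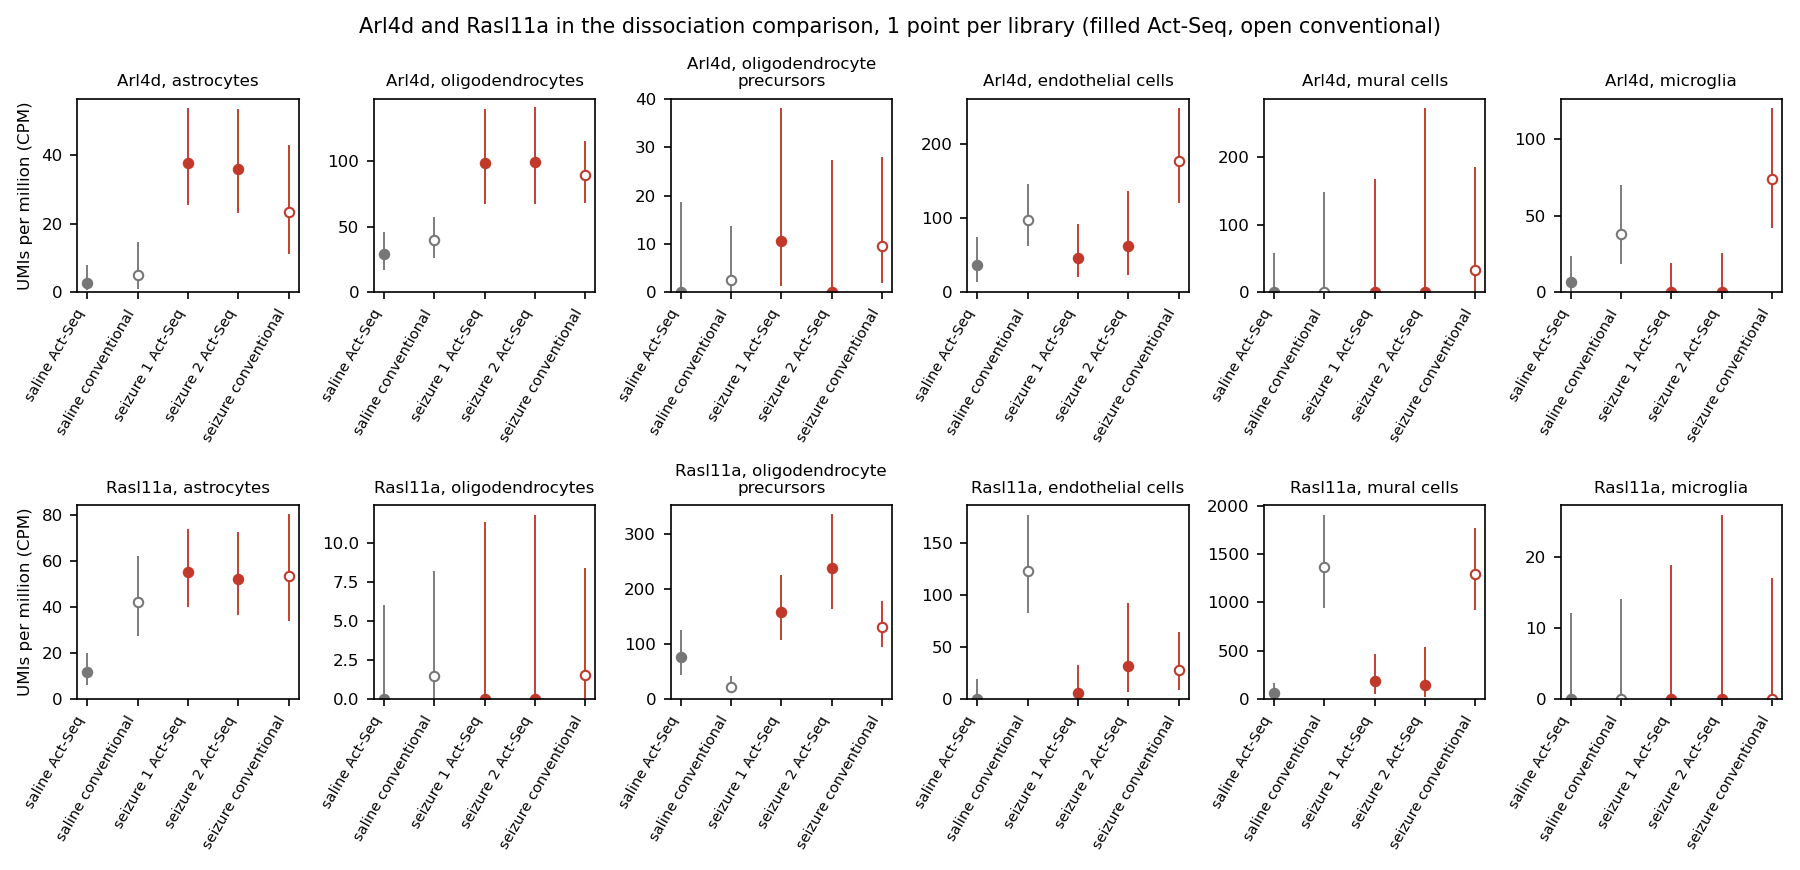
Arl4d (upper row) and Rasl11a (lower row) in the dissociation comparison; the y axis is CPM on a linear scale that differs between panels, each point is 1 library (filled Act-Seq, open conventional, grey saline, red seizure), and bars are 95% Poisson intervals for counting error. Rasl11a in mural cells stands at 1365 and 1292 CPM in the conventional libraries against 62.5 to 181 CPM with Act-Seq, and Arl4d in astrocytes follows seizure with either method.

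The same families were read in this method comparison in astrocytes, where 4.42% of the 8870 genes tested were called, 3.48% lower and 0.936% higher with conventional dissociation. ARF and ARL genes had 1 of 21 called: Arf3 was lower with conventional dissociation (-1.76, edgeR adjusted p = 8.14e-05). Exchange factors and GTPase-activating proteins had 4 of 30 called, all lower: Iqsec3 (-2.31), Psd (-2.47), Agap1 (-1.48) and Agap2 (-2.65). RAS genes had 1 of 21 (Rasl10b, -3.15, edgeR adjusted p = 0.000264). Genes of RNA polymerase I transcription had 0 of 10, with 0 at an unadjusted p under 0.05 and 0 by DESeq2. The calls for Arf3, Psd and Agap2 held with each of the 5 libraries left out. Those for Iqsec3, Agap1 and Rasl10b were lost without either saline library (adjusted p = 0.630 and 0.552, 0.162 and 0.151, and 0.114 and 0.0747). Summed neuron markers in these astrocytes were 621 CPM in Act-Seq saline, 639 and 803 in Act-Seq seizure, 597 in conventional saline and 505 CPM in conventional seizure libraries. The astrocyte clusters were unevenly split between methods, as given above. An unnamed cluster with Rasl10b among its leading genes held 370 cells in Act-Seq saline and 321 and 193 in Act-Seq seizure libraries. It held 10 and 23 cells in the conventional saline and seizure libraries. The part of neuron RNA, of the astrocyte clusters or of that unnamed cluster in these values was not tested.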

How the data were processed

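Drop-seq libraries of mouse medial amygdala were analysed from the authors' deposited tables of UMI counts per gene and cell, which are whole numbers with no normalization. Per the submitters' processing notes, reads were handled with bcl2fastq 2.17.1.14 and STAR 2.5.0a on mm10; neither the counting tool and its strand setting nor the cell filters are known from the labels or headers. Arl4d, Rasl11a and the gene lists were chosen with earlier results of these data known. Counts were summed per library and class (at least 10 cells; 74620 to 1286558 UMIs per library in astrocytes) using the authors' classes. Cells of the dissociation table were clustered (scanpy 1.11.5, Leiden resolution 0.8, 30 components) without Arl4d, Rasl11a and the immediate early genes, 41 genes in all, and named from at least 3 markers. Doublets were treated by an alternative without the 5% of cells with most UMIs. Tests were edgeR 4.0.16 quasi-likelihood F-tests (R 4.3.3, TMM scaling, filterByExpr, Benjamini-Hochberg adjustment within a class, threshold 0.05): 1 fit over naive, seizure, immobilization and odor libraries, and 1 over the 5 dissociation libraries with seizure and method as terms. DESeq2 1.42.0 was an alternative. Shares of cells were thinned to 600 and 1000 UMIs by the exact expectation. Poisson intervals and the floor of 3 counts cover counting error only. P-values measure the spread between libraries. A further gene list is not reported here. The scripts were tested on simulated data. Besides Arl4d and Rasl11a, the genes named are the paralogs, list members called in astrocytes (at most 5 per list and comparison), the 5 genes most alike to each, and reference genes of acute responses; Rasl11b in oligodendrocytes is a paralog.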

Additional observations from a re-analysis of the deposited data

Results flagged for a closer look

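In 9 of 36 groups of 4 or 5 libraries, 1 library stood apart from the others by Dixon's ratio. Its chance rate of about 1 in 20 is for continuous values. Where all other libraries had 0, a single UMI gives a ratio of 1 and is always flagged, so 9 of 36 cannot be set against that rate. The clearest was Arl4d in naive oligodendrocytes, where naive 2 had 61.6 CPM from 21 UMIs and the next library 14.4 CPM. The other 8 rested on 0 to 2 UMIs. Arl4d was 136 CPM in endothelial cells of odor 4 (2 UMIs in 12 cells) and 0 CPM in its microglia. It was 31.4 CPM in mural cells of naive 4 and 1.27 CPM in neurons of naive 3, from 1 UMI each. In oligodendrocyte precursors it was 11.5 CPM in immobilization 3 (2 UMIs) and 9.64 CPM in odor 2 (1 UMI), with 0 in the other libraries of those groups. Rasl11a was 6.39 CPM in microglia of naive 3 and 37.3 CPM in the remaining neuron-class cells of naive 5, again from 1 UMI each.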

How the results depend on the processing

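Of 826 values recomputed for 58 results, 738 counted as unchanged. Differences and shares were judged by direction, side of the threshold or spread. Counts of called genes were judged by a set ratio to the main count, which 84 kept and 36 did not. Genes called in astrocytes after seizure (49) were 28 with DESeq2 and 23 to 52 with 1 library left out. Those after immobilization (159) were 251 with no low-count filter, 93 with DESeq2, 104 with age as a covariate and 87 to 185 with 1 library left out. Those after odor (69) were 151 with no filter and 36 to 109 with 1 library left out. With a replicate block the 3 counts were 45, 143 and 67. Deviations of same-numbered astrocyte libraries had a median r of 0.03 over 18 pairs, of which 1 exceeded 0.1 (naive 1 with seizure 1, 0.173). For 64 differently numbered pairs the median was -0.00675, and 0 exceeded 0.1. Whether same-numbered libraries were handled together cannot be told from these values. The block turned the fitted difference of Arl4d in seizure endothelial cells from -0.24 to 0.0335, and leaving out libraries gave -0.47 to 0.0334 (the latter without naive 3). Without odor 4, Rasl11a in odor precursors was -0.16 in place of 0.42, and with other libraries left out at most 0.90. With 1 dissociation library left out, the method difference ran from -0.61 to 0.96 for Arl4d in astrocytes, -0.0909 to 0.57 in oligodendrocytes and 1.54 to 1.82 in endothelial cells (adjusted p 0.0905 to 0.729, edgeR; 1.73 with no filter, adjusted p = 0.0139). For Rasl11a it ran from 0.0355 to 1.93 in astrocytes, -1.70 to -0.53 in precursors and 3.02 to 4.39 in mural cells. Among the list genes, Agap1 lost its method call with DESeq2 (adjusted p = 0.294) and Iqsec3 with RLE scaling (0.0538). Thinning lowered the shares of astrocytes with a UMI and kept their order. With a pseudocount of 1 or 50, 3 to 5 of the 5 most similar genes were the same. The fit with no low-count filter in microglia and endothelial cells, the split of mural cells and the levels by astrocyte cluster were chosen after seeing the data. Depth limits every statement on a class with few UMIs: a library with 1 UMI and a library with 0 are not told apart. The causes of these differences were not tested.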
